A study of Mus musculus with 18 samples.

Results

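The muscle miRNAs miR-206, miR-1 and miR-133 were followed in mouse NIH/3T3 fibroblasts, an established line derived from embryonic connective tissue. The members were the mature miRNAs mmu-miR-206-3p, mmu-miR-1a-3p, mmu-miR-133a-3p and mmu-miR-133b-3p (mmu, for mouse, is left out below), taken by name from a table of 1907 mature miRNAs, with the reads of all precursor copies of one miRNA summed. These 4 were selected on their input levels by day of Pus1 knockdown and on their recovery by immunoprecipitation (IP), so those values are given as descriptions without a test. Of the 4, 3 had any read, as against 1232 in the whole table, and 2 passed the filter on low counts, miR-206-3p and miR-1a-3p, out of 550.

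Small RNA was sequenced from 3 conditions, each as input and after IP with an antibody against pseudouridine (Ψ), with 3 replicates (A, B and C) and 18 libraries in all. WT stands for NIH/3T3 cells without knockdown, KD3 for cells at day 3 of Pus1 knockdown and KD6 for cells at day 6. Pus1 encodes a pseudouridine synthase, an enzyme that converts uridine in RNA to Ψ. All cells were grown in medium with fetal bovine serum. The reagent used for the knockdown is not given in the sources used here, the counts do not measure Pus1 itself, and no label says whether replicates were separate cultures, so the spread between them may be partly technical.

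miR-1, miR-206 and miR-133 are known as myomiRs. They are transcribed in pairs, miR-1 with miR-133a and miR-206 with miR-133b, from loci that the myogenic transcription factors MyoD and myogenin switch on. miR-1 and miR-206 share a seed, the stretch at the 5′ end that pairs with target mRNAs, and promote myoblast differentiation, whereas miR-133 is known for favouring myoblast proliferation. miR-206 is made mainly in skeletal muscle, and miR-1 and miR-133a in both skeletal and heart muscle. Fibroblasts are not a tissue in which these miRNAs are abundant.

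RefSeq (GRCm38.p6) gave a sequence for 2 of the 4 members, miR-206-3p and miR-133b-3p. The first is the muscle miRNA that carried nearly all of the reads and the second is its partner from the same locus, which had none. The opposite arm of the miR-206 hairpin is shown because it had almost no reads. The seed (bases 2 to 8) is in capitals, and all run 5′ to 3′.
miR-206-3p: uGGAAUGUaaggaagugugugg
miR-206-5p: aCAUGCUUcuuuauauccucaua
miR-133b-3p: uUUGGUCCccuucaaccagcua

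Among 1679 mature miRNAs with a RefSeq sequence, 2 others had the seed of miR-206-3p. miR-1a-3p, which shares the seed and did have reads, had no sequence there and was not among them. The 2 are shown because a reader may ask whether they carried reads that resemble miR-206-3p. Past the seed both differ from miR-206-3p, and both had 0 reads in all 18 libraries.
miR-6349: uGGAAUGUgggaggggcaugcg
miR-6382: uGGAAUGUaaagagagcacacaag

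The 2 hairpins of the miR-206 locus follow, with both mature arms in capitals. They lie on the plus strand of chromosome 1 (GRCm38, the assembly that mm10 also names), Mir206 at chr1:20679010-20679082 and Mir133b at chr1:20682769-20682887, with 3686 bases between them.
Mir206: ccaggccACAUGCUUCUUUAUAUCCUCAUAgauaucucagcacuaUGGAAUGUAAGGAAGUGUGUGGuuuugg
Mir133b: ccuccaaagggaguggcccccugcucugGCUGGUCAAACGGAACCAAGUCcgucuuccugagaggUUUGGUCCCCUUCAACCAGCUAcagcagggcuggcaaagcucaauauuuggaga

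Both hairpins are inside the long noncoding RNA gene Gm28653 of GENCODE M21 (chr1:20669882-20684298), named Lincmd1 by RefSeq. Mir133b is wholly inside an exon of this gene, and Mir206 overlaps an exon in part. For 1 copy of the miR-1 and miR-133a pair, Mir1a-1 is at chr2:180389048-180389124 and Mir133a-2 at chr2:180398379-180398482, both on the plus strand. They have 9254 bases between them and are both inside the RefSeq noncoding gene Mir1a-1hg (chr2:180385604-180401802). miR-1a-3p and miR-133a-3p each have 2 precursor rows, which were summed, and the further copies were not placed.

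miR-206-3p accounted for 28128.3 of the estimated counts over the 18 libraries, 0.0233% of all miRNA reads, and was present in every library. miR-1a-3p had 312.6 estimated counts in 17 libraries. miR-133a-3p had 6 counts, all in replicate B of the KD3 IP, where they came to 2.13 CPM (counts per 1000000 miRNA reads). miR-133b-3p, encoded next to miR-206, had 0 counts in all 18 libraries. A count of 0 allows up to 3 counts, which was 0.228 to 1.20 CPM in 17 of the libraries and 11.3 CPM in replicate A of the KD6 input. That library was the shallowest, with 241109 mapped reads against 3989031 to 15099781 in the others, and it held 37 counts of miR-206-3p.

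The hairpin of miR-206 gave its 3p arm almost alone. miR-206-5p had 2 of 28130.3 counts, or 0.00711%. Among 175 hairpins with at least 1000 counts and both arms listed, 12 had a smaller share from the minor arm, and the median share was 2.26%.

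In input, miR-206-3p was lowest in KD3 and highest in KD6. CPM values here are scaled with the trimmed mean of M-values (TMM), which sets library sizes so that most miRNAs match between libraries. WT input libraries A, B and C had 106.7, 130.3 and 121.4 CPM (119 ± 11.9, SD, n = 3). KD3 input had 88.0, 101.5 and 105.5 CPM (98.4 ± 9.16). KD6 input had 139.6, 206.2 and 230.2 CPM (192 ± 46.9).

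On this scale the 3 input groups did not overlap, and the lowest KD6 value was that of the shallow replicate A. The gap between KD3 and WT was narrow, 105.5 against 106.7 CPM. With library size alone as the scale, KD3 input spanned 84.6 to 102.5 CPM and overlapped WT input, which began at 101.5 CPM. Groups that do not overlap were common among all 550 miRNAs tested: 36.2% for KD3 against WT input, 28.2% for KD6 against WT input and 22.2% for KD6 against KD3 input.

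**Figure D1:**
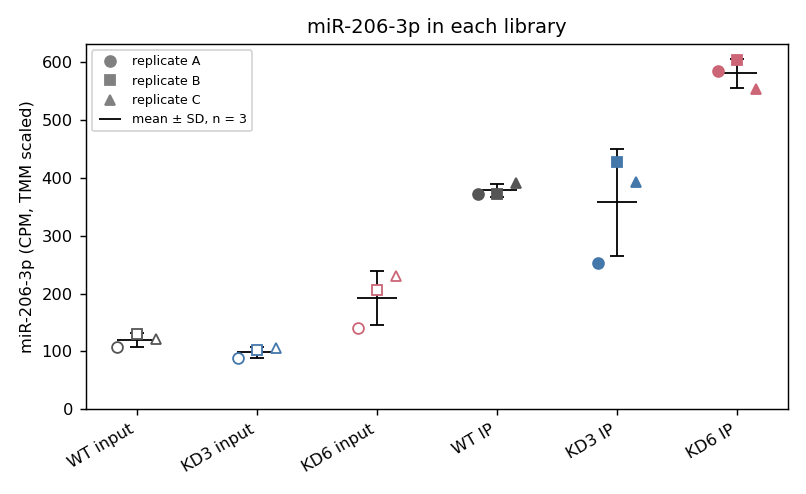
miR-206-3p in each of the 18 libraries, in CPM scaled with TMM, by group; open symbols are input, filled symbols IP, symbol shapes the replicates, and bars the mean ± SD (n = 3). Input libraries sit between 88.0 and 230.2 CPM and IP libraries between 252.6 and 603.6 CPM.

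The log2 ratio of miR-206-3p was −0.28 ± 0.21 (SE) for KD3 against WT input, where the median of all miRNAs was −0.17. It was 0.72 ± 0.22 for KD6 against WT input, beside a median of −0.24. It was 1.00 ± 0.22 for KD6 against KD3 input, beside a median of −0.10. Relative to those medians the differences were −0.11, 0.95 and 1.10. So miR-206-3p was close to the typical miRNA at day 3 and about 1 log2 unit above it at day 6.

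Because the members were selected on these contrasts, no p is given, and the calls over all miRNAs serve as background. At an edgeR adjusted p under 0.05, 0% of the 550 miRNAs passed for KD3 against WT input, although 46 had an unadjusted p under 0.05 and DESeq2 called 13. For KD6 against WT input 4.18% passed, 0.364% higher and 3.82% lower. For KD6 against KD3 input 4.36% passed, 1.27% higher and 3.09% lower. The ratio of KD6 to WT ranked 42 from the highest and that of KD6 to KD3 ranked 34.

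Leaving out the shallow KD6 input replicate A gave miR-206-3p a ratio of 1.03 for KD6 against WT and 1.16 for KD6 against KD3. Over all 17 alternative settings the first ranged from 0.69 to 1.07 and the second from 0.97 to 1.29, so neither changed direction. The background counts were less stable. For KD6 against WT input 23 miRNAs were called, and without WT input replicate A, B or C 2, 3 and 3, without KD6 input replicate A, B or C 22, 5 and 0. For KD6 against KD3 input 24 were called, and without KD3 input replicate A, B or C 1, 3 and 2, without KD6 input replicate A, B or C 36, 2 and 4. Each of these steps also moved the reference library of the TMM scaling.

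In the IP, miR-206-3p was higher than in input in all 3 conditions. WT IP libraries had 372.4, 372.3 and 390.7 CPM (378 ± 10.6, SD, n = 3). KD3 IP had 252.6, 427.5 and 393.6 CPM (358 ± 92.8). KD6 IP had 585.8, 603.6 and 554.8 CPM (581 ± 24.7). Each IP library was above every input library of its condition. The mean of KD6 IP was the highest of the 3 IPs on this scale. With all mapped reads as the library size, however, KD6 IP (323 to 380 CPM) overlapped WT IP (326 to 344 CPM).

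The log2 ratio of IP to input was 1.66 ± 0.22 (SE) in WT, 1.86 ± 0.22 in KD3 and 1.56 ± 0.22 in KD6. Medians of all miRNAs were −0.35, −0.26 and −0.35, so miR-206-3p stood 2.01, 2.12 and 1.92 above them. These ratios moved with the scaling, from 1.496 to 2.52 in WT, 1.51 to 2.55 in KD3 and 0.74 to 2.34 in KD6. They were positive under all 17 alternatives, and relative to the median the ranges narrowed to 1.62 to 2.09, 1.87 to 2.21 and 1.19 to 1.95.

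A change between IP and input was the common case among these miRNAs. In WT 65.6% of the 550 passed an adjusted p under 0.05, 25.5% higher and 40.2% lower in the IP. In KD3 65.8% passed, 27.6% higher and 38.2% lower. In KD6 68.9% passed, 30.5% higher and 38.4% lower. Input and IP libraries did not overlap for 73.3% of miRNAs in WT, 73.8% in KD3 and 56.4% in KD6. In WT 85.6% of miRNAs had a lower IP ratio than miR-206-3p, in KD3 86.7% and in KD6 76.7%.

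By level, miR-206-3p ranked 149 of 550 in WT input, 154 in KD3 input and 127 in KD6 input. It ranked 84 in WT IP, 90 in KD3 IP and 68 in KD6 IP. The number of reads per distinct sequence at miR-206-3p averaged 18.2, 17.8 and 18.04 in the inputs of WT, KD3 and KD6, and 25.6, 21.9 and 29.4 in their IPs.

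With knockdown the IP ratio of miR-206-3p differed from that of WT by less than 1 SE. The change in the log2 ratio of IP to input was 0.20 ± 0.30 (SE) at day 3 and −0.10 ± 0.30 at day 6, against medians of 0.13 and 0.22 for all miRNAs. For either day 0% of miRNAs were called by edgeR, with 17 at an unadjusted p under 0.05 at day 3 and 98 at day 6. DESeq2 called 0 and 35. The day 3 value took both signs over 23 alternatives, from −0.13 to 0.22, and the day 6 value ranged from −0.89 to −0.03.

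**Figure D2:**
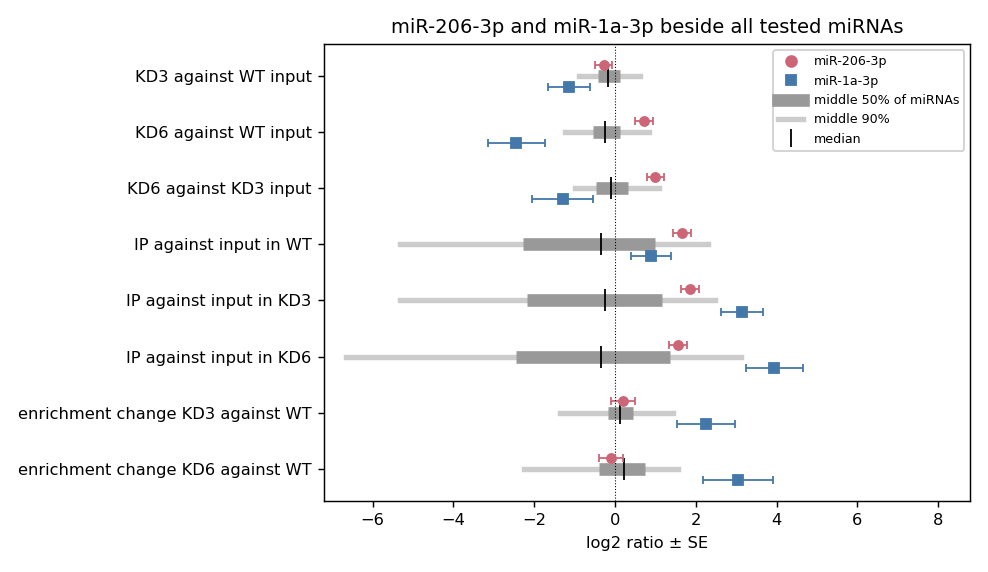
log2 ratios of miR-206-3p (circles) and miR-1a-3p (squares) with SE in the 8 comparisons; grey bars give the spread of the 550 tested miRNAs and the black mark their median. miR-206-3p lies at 1.56 to 1.86 in the IP ratios, and miR-1a-3p rises from 0.89 in WT to 3.95 in KD6.

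In input, miR-1a-3p was at far lower levels than miR-206-3p. Its mean was below WT in KD3, as for miR-206-3p, but also in KD6, where miR-206-3p was highest. WT input libraries had 13, 23 and 24 counts, KD3 input 13, 8 and 7, and KD6 input 0, 2 and 4. In CPM the group means were 1.93 ± 0.469 (SD, n = 3), 0.870 ± 0.170 and 0.231 ± 0.201. The groups did not overlap on the CPM scale. The same held for 36.2% of all miRNAs for KD3 against WT input, 28.2% for KD6 against WT and 22.2% for KD6 against KD3. The 0 in KD6 input replicate A, though, allows up to 11.3 CPM, more than any level measured for this miRNA. Replicates B and C of KD6 input were at 0.331 and 0.362 CPM, below the 3 KD3 inputs at 0.675 to 0.988.

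With counts pooled over a group, the rate of miR-1a-3p in KD3 input was 0.442 of that in WT input, and in KD6 input 0.177. The log2 ratios were −1.15 ± 0.52 (SE) for KD3 against WT input, −2.44 ± 0.71 for KD6 against WT input and −1.29 ± 0.75 for KD6 against KD3 input. Of the 550 miRNAs, 2.55%, 0.727% and 2.36% had a lower ratio in these comparisons.

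In the IP, the counts of miR-1a-3p were 10, 30 and 20 for WT. They were 19, 31 and 43 for KD3, and 5, 22 and 38 for KD6. Group means were 3.60 ± 1.65 CPM (SD, n = 3), 7.90 ± 2.69 and 5.59 ± 3.67, and within each condition every IP library was above every input library. Input and IP did not overlap for 73.3% of all miRNAs in WT, 73.8% in KD3 and 56.4% in KD6. For miR-1a-3p in WT the margin was narrow, 2.390 CPM for the lowest IP against 2.385 for the highest input. The pooled IP rate was 1.86 times the input rate in WT, 8.64 times in KD3 and 16.2 times in KD6.

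The log2 ratio of IP to input was 0.89 ± 0.49 (SE) in WT, 3.15 ± 0.52 in KD3 and 3.95 ± 0.70 in KD6. The 6 counts of the KD6 input set the last value. Over the alternatives in which miR-1a-3p passed the filter these ratios stayed positive, from 0.74 to 1.91 in WT (highest without WT IP replicate A), 2.80 to 3.84 in KD3 and 3.17 to 5.02 in KD6. Without WT input replicate A, B or C the WT value was 1.54, 1.71 and 1.87, and without WT IP replicate C it was 1.90. The change from WT was 2.25 ± 0.71 at day 3 and 3.06 ± 0.86 at day 6, and 98.0% and 98.7% of miRNAs had a lower change. Between the IPs alone the pooled rate was 2.05 times that of WT in KD3 and 1.54 times in KD6.

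**Figure D3:**
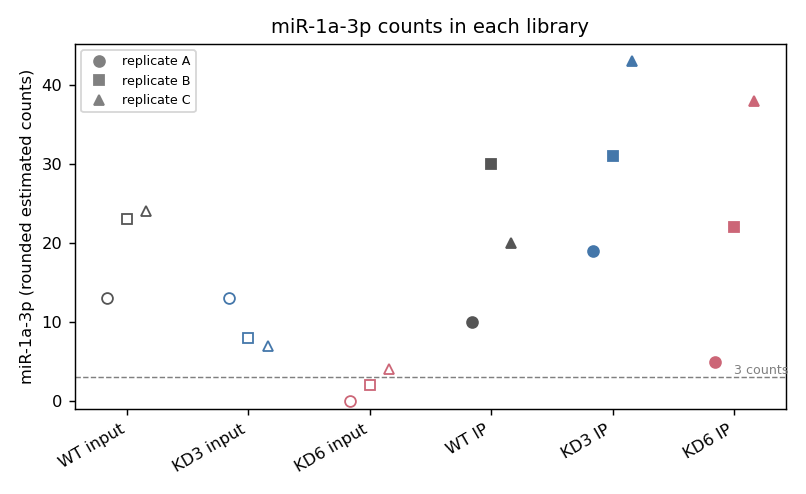
Rounded estimated counts of miR-1a-3p in each library by group; open symbols are input, filled symbols IP, shapes the replicates, and the dashed line marks the 3 counts that a 0 allows. KD6 input holds 0, 2 and 4 counts and KD3 IP 19, 31 and 43.

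The inputs of miR-206-3p and miR-1a-3p thus took different courses. The ratio of miR-206-3p to miR-1a-3p counts was 61.7 in WT input, 112 in KD3 input and 637 in KD6 input. In the IPs it was 104, 49.0 and 102.

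Few other muscle miRNAs were present. Of 18 relatives (opposite arms, copies, and the further myomiRs miR-208, miR-499 and miR-486), 3 passed the filter. The heart and slow-muscle miRNA miR-499-5p had 66 counts in 12 libraries. miR-1b-3p had 9 counts, miR-1b-5p 7, miR-208b-3p 1, miR-206-5p 2 and miR-486b-3p 10. The other 9 had 0 counts.

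The 3 that passed came from the miR-486 locus, which is active in muscle and in red blood cells. miR-486a-5p had 10.7 ± 1.73 CPM (SD, n = 3) in WT input, 9.29 ± 1.43 in KD3 input and 11.0 ± 3.17 in KD6 input. miR-486b-5p had 11.3 ± 2.38, 9.80 ± 1.14 and 11.6 ± 3.62 CPM, and miR-486a-5p and miR-486b-5p come from overlapping hairpins whose reads were divided. miR-486a-3p had 1.31 ± 1.19, 0.192 ± 0.204 and 0.327 ± 0.431 CPM.

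None of the 3 was called in a comparison of inputs. Of all miRNAs, 0%, 4.18% and 4.36% were called for KD3 against WT, KD6 against WT and KD6 against KD3. miR-486a-3p had a log2 ratio of −2.84 ± 1.06 (SE, edgeR adjusted p = 0.486) for KD3 against WT, with an unadjusted p of 0.0138. For KD6 against WT miR-486a-5p was at 0.20 ± 0.26 (adjusted p = 0.765) and miR-486b-5p at 0.20 ± 0.29 (adjusted p = 0.780). In the IP all 3 were higher than in input in WT and in KD6, and 2 in KD3, beside 25.5%, 30.5% and 27.6% of all miRNAs. In WT the log2 ratio was 1.09 ± 0.25 for miR-486a-5p (adjusted p = 0.000567) and 2.38 ± 0.79 for miR-486a-3p (adjusted p = 0.0109).

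Another 14 miRNAs known from myogenesis were all measured, 9 linked to muscle differentiation and 5 to keeping myoblasts undifferentiated. In KD3 against WT input 0 of the 14 were called, beside 0% of all miRNAs. The count was 6 when the fit held only the libraries compared, where 77 miRNAs were called in all. In KD6 against WT input and in KD6 against KD3 input 1 of the 14 was called, beside 4.18% and 4.36% of all miRNAs, and in both it was miR-214-3p, lower in KD6. The median log2 ratio of the 14 was −0.12, −0.19 and −0.10 in the 3 comparisons of inputs, beside −0.17, −0.24 and −0.10 for all miRNAs.

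miR-214-3p, linked to muscle differentiation and also expressed in fibroblasts, had 2404, 2376 and 2643 CPM in WT input libraries A, B and C. KD3 input had 2482, 2335 and 2377 CPM, and KD6 input 834, 1327 and 1362 CPM. KD6 lay below both other groups in every library. Groups that do not overlap made up 28.2% of all miRNAs for KD6 against WT input and 22.2% for KD6 against KD3 input. The log2 ratio of miR-214-3p was −1.07 ± 0.21 (SE, edgeR adjusted p = 0.00413) for KD6 against WT input and −1.02 ± 0.21 (adjusted p = 0.0129) for KD6 against KD3 input. The values kept their sign under all 17 alternatives, from −1.08 to −0.72 and from −1.04 to −0.73, but the calls held in 8 and 10 of them. The call against WT was lost on leaving out any 1 of the 6 libraries, which also moved the reference library of the TMM scaling.

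Between IP and input, 12 of the 14 were called in each condition, 3 higher and 9 lower, where 65.6%, 65.8% and 68.9% of all miRNAs were called in WT, KD3 and KD6. Of the 9 differentiation miRNAs, 1 was higher and 8 were lower in each condition, where 40.2%, 38.2% and 38.4% of all miRNAs were lower in WT, KD3 and KD6. Their median log2 ratio in WT was −2.47, beside −0.35 for all miRNAs. Of the 5 miRNAs linked to the undifferentiated state, 2 were higher, 1 was lower and 2 were not called in each condition, beside the 25.5%, 27.6% and 30.5% of all miRNAs that were higher. In WT the highest ratios were 2.40 ± 0.21 (SE, adjusted p = 3.16e-09) for miR-155-5p and 1.01 ± 0.23 (adjusted p = 0.000652) for miR-26a-5p. The lowest were −3.61 ± 0.33 (adjusted p = 4.64e-09) for miR-322-5p and −2.69 ± 0.28 (adjusted p = 3.69e-08) for miR-378a-3p, which is made from an intron of a regulator of metabolism and is abundant in muscle. The IP ratio of miR-206-3p in WT, 1.66, lay inside that range.

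Levels of miR-206-3p were compared over libraries with those of 148 other miRNAs with a mean of at least 100 CPM, on the log2 CPM scale. Over all 18 libraries the closest were miR-669c-5p (Pearson r = 0.960), miR-155-5p (0.958) and miR-98-5p (0.936), with a median r of −0.16. Over the 9 inputs they were miR-669c-5p (0.930), miR-155-5p (0.806) and miR-26b-5p (0.764), with a median of −0.20. Libraries share scaling factors and, over all 18, the step from input to IP, so these are descriptions with no p.

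miR-669c-5p, from a large mouse miRNA cluster, had 526, 640 and 489 CPM in WT input, 527, 537 and 549 in KD3 input, and 585, 1210 and 1265 in KD6 input. Its WT input and KD6 input replicate A overlapped. The log2 ratio was 0.90 ± 0.24 (SE) for KD6 against WT input and 0.94 ± 0.24 for KD6 against KD3 input. miR-26b-5p had ratios of 0.75 ± 0.40 and 0.95 ± 0.40 in the same comparisons. No p is given for either, since both were picked for their likeness to miR-206-3p over these libraries.

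**Figure D4:**
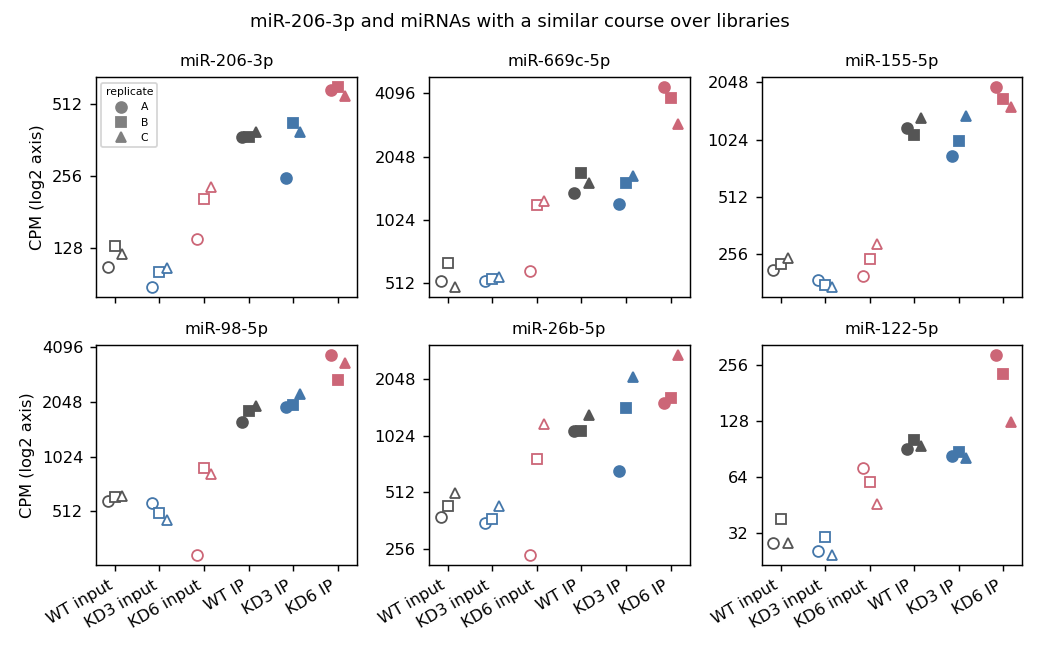
CPM on a log2 axis for miR-206-3p, the 4 miRNAs closest to it over libraries, and the liver miRNA miR-122-5p, by group; open symbols are input, filled symbols IP, and shapes the replicates. In input miR-206-3p runs from 88.0 to 230.2 CPM and miR-122-5p from 24.4 to 71.7 CPM.

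Markers of other cell types were read beside these values. The 7 mesenchymal markers, led by miR-21a-5p, were all present and summed to 324433 to 540888 CPM in the inputs. Summed inputs of the epithelial miR-200 and miR-141 list (4 of 4 with a read) were at most 2.90 CPM, of the leukocyte list (4 of 4 with a read) at most 0.815 CPM and of the endocrine miR-375-3p at most 0.912 CPM. The neuronal list was carried by miR-9-5p, at 3541 ± 210 CPM (SD, n = 3) in WT input, while miR-124-3p, the defining neuronal miRNA, had 16.2 counts in 4 libraries. The red blood cell list of 3 summed to 7.55 to 15.1 CPM in the inputs, nearly all of it miR-486a-5p, and miR-451a had 30 counts in 7 libraries.

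The group means of the liver miRNA miR-122-5p, which is also carried in serum, went in the same directions as those of miR-206-3p. WT input libraries A, B and C had 28.4, 38.2 and 28.2 CPM, KD3 input 25.6, 30.5 and 24.4, and KD6 input 71.7, 59.9 and 45.6. The 71.7 CPM of the shallow KD6 input replicate A rest on 19 counts. Within KD6 input its replicates A, B and C fell in this order, whereas those of miR-206-3p rose. KD3 input overlapped WT input, unlike for miR-206-3p. KD6 input lay above both other groups in every library. Groups did not overlap for 28.2% of all miRNAs for KD6 against WT input and 22.2% for KD6 against KD3 input. The log2 ratio of miR-122-5p was −0.24 ± 0.26 (SE, edgeR adjusted p = 0.819) for KD3 against WT input. It was 0.83 ± 0.27 (adjusted p = 0.0891) for KD6 against WT input and 1.07 ± 0.27 (adjusted p = 0.0291) for KD6 against KD3 input. The last call held in 11 of 17 alternatives. miR-122-5p was singled out from lists chosen with earlier results of these data known, so its adjusted p values are descriptive.

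In the IP, miR-122-5p averaged 95.7 ± 5.61 CPM (SD, n = 3) in WT, 83.7 ± 3.29 in KD3 and 215 ± 82.9 in KD6. The log2 ratio of IP to input in WT was 1.60 ± 0.26 (SE, edgeR adjusted p = 1.72e-05), beside 1.66 for miR-206-3p. Of the red blood cell list, also carried in serum, only miR-486a-5p passed the filter. Its log2 ratio was 0.20 ± 0.26 (SE, edgeR adjusted p = 0.765) for KD6 against WT input. For KD6 against KD3 input it was 0.41 ± 0.27 (adjusted p = 0.499). The part of serum or of another cell type in the course of miR-206-3p was not tested.

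miR-206-3p has no cytosine. Of its 22 bases 10 are G, 6 are U and 6 are A. Of the 550 miRNAs tested, 475 (86.4%) had a RefSeq sequence, and 10 of these, miR-206-3p included, had no cytosine. The other 9 were miR-190a-5p, miR-190b-5p, miR-98-5p, let-7k, let-7f-5p, let-7c-5p, let-7e-5p, let-7b-5p and let-7a-5p. They are not independent cases, because 7 belong to the let-7 family and the other 2 to the miR-190 family. The guanine share of miR-206-3p, 45.5%, was above that of 93.5% of miRNAs, while its uridine share, 27.3%, was equal to the median. Its adenine share, also 27.3%, was above that of 66.9% of miRNAs, with a median of 22.7%.

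All 10 miRNAs without cytosine had an IP ratio above the median of all miRNAs in each of the 3 conditions. The 10 include miR-206-3p, which was selected on its IP ratio, so its own value is part of this count and of the medians below. In WT the log2 ratios of the 10 ran from 0.55 to 2.43 with a median of 1.61, beside −0.42 for miRNAs with cytosine. In KD3 the medians were 1.88 and −0.34, and in KD6 2.08 and −0.38. The relation over cytosine content was not monotonic. In WT, leaving out the 10 without cytosine, 41 of 47 miRNAs with up to 10% cytosine were above the median of all. The same held for 65 of 146 with 10% to 20%, 47 of 142 with 20% to 30% and 74 of 130 with more. Across the 475 miRNAs Spearman's rho of the WT ratio was −0.11 with the share of C, 0.20 with G, −0.28 with A and 0.08 with U. These are correlations across miRNAs, which share families and libraries, and are given without a p.

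**Figure D5:**
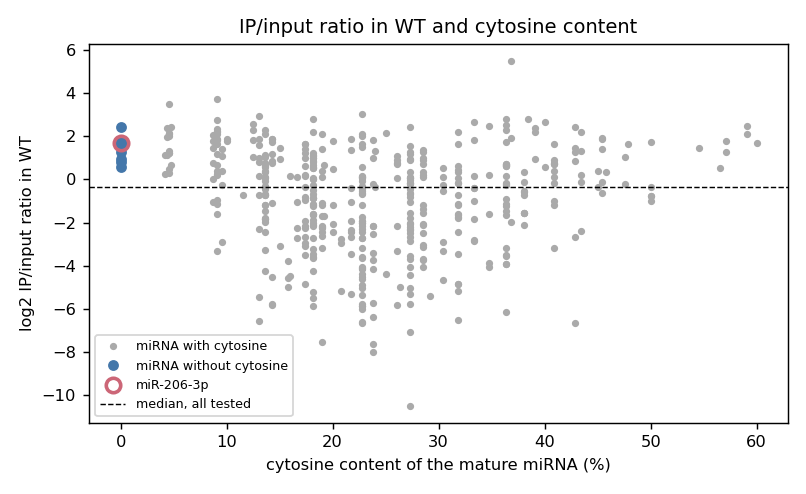
log2 ratio of IP to input in WT against the percentage of cytosine in the mature sequence for 475 miRNAs; blue points are the 10 without cytosine, the ring is miR-206-3p and the dashed line the median of all tested miRNAs. The 10 points at 0% run from 0.55 to 2.43, all above the median of −0.35.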

How the data were processed

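Per the paper's methods, small RNA reads of NIH/3T3 cells were trimmed of their 3′ adapter by the authors and passed through SeqImp with its default settings for mouse miRNAs on mm10. They deposited estimated counts of mapped reads, not normalized, for 2045 rows of mature miRNA and precursor, in which a read that fits several loci is divided among them, so 47.0% of non-zero values were not whole. Distinct read sequences were deposited beside them. The row that holds each library's total names no miRNA and stayed out of the tests. Reads outside miRNA rows made up 5.47% to 38.2% of that total.

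Rows were summed per mature miRNA (78 had several), rounded, filtered with filterByExpr, scaled with TMM and fitted with edgeR 4.0.16 (glmQLFit and glmQLFTest, R 4.3.3) as 6 group means over 18 libraries with no block, adjusted after Benjamini-Hochberg over the 550 miRNAs left. The procedure was tested on simulated data, in which each miRNA had a common mean over all libraries, input and IP alike. Some miRNAs were then raised or lowered at random in a single group. Of 2-fold changes it recovered 56.1% for KD6 against WT input and 59.6% for IP against input in WT. Of 4-fold changes it recovered 91.1% and 90.2%. SE is of the log2 ratio. The floor of 3 counts covers counting error only.

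Members and lists were chosen with earlier results of these data known. Every member was named, relatives with any read, and myogenesis miRNAs if called in a comparison of inputs or among the 2 highest and 2 lowest IP ratios in WT. miR-122-5p, the miRNAs most like miR-206-3p over libraries and those without cytosine are named beside them.

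Deviations from group means, over 188 miRNAs with a mean log2 CPM above 5, correlated for every same-letter pair in KD3 against WT input (0.20 to 0.61) and KD6 against KD3 input (0.24 to 0.34). For KD6 against WT input they ran from 0.058 to 0.43. Between IP and input they took both signs, −0.15 to 0.025 in WT, −0.068 to 0.38 in KD3 and −0.18 to 0.52 in KD6. No label states what a letter shares, so a pairing of the libraries was not established.

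Alternatives were RLE and upper-quartile factors, library size alone, total mapped reads, no filter, a mean of at least 10 counts, the largest row per miRNA, the replicate block, only the libraries compared, DESeq2 1.42.0, each library left out in turn and, added after the data were seen, TMM factors averaged over all reference libraries. Sequences and gene positions are from RefSeq and GENCODE M21, both on GRCm38.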

Additional observations from a re-analysis of the deposited data

Results flagged for a closer look

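In the inputs, every KD3 library was below and every KD6 library above the WT libraries for miR-206-3p, and the log2 ratio of KD6 to KD3 was 1.00. At day 3 the ratio to WT was −0.28 ± 0.21 (SE), −0.11 from the median of all miRNAs, and groups that do not overlap made up 36.2% of miRNAs in that comparison. The difference between days was not tested, because miR-206-3p was chosen on these levels, and with library size alone as the scale KD3 overlapped WT.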

How the results depend on the processing

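Settings that gave the values here changed the counts called and the IP ratios more than the input ratios of miR-206-3p. The default TMM reference was an IP library, WT IP replicate A, but with any 1 library left out it was an input library, in 17 of 18 cases the shallow KD6 input replicate A. The cause of each shift was otherwise not tested. KD6 input replicate A, with 37 counts of miR-206-3p, limits the KD6 values, and miR-1a-3p is limited by its 312.6 counts.

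Values of miR-206-3p that moved by more than the spread between replicates, and counts that moved by more than 1.5 times, were these. Of the values of miR-1a-3p, 17 moved so, all for the IP ratio in WT or KD3 or its change at day 3, and with no change of direction. RLE factors gave miR-206-3p IP ratios of 1.97 in WT and 1.85 in KD6, as DESeq2 did. DESeq2 called 13 miRNAs for KD3 against WT input and 35 for the change in IP ratio at day 6. Upper-quartile factors gave IP ratios of 2.37, 2.55 and 2.34 in WT, KD3 and KD6, and 15 calls for KD6 against KD3 input.

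Library size alone gave 1, 13 and 12 calls for KD3 against WT, KD6 against WT and KD6 against KD3 input, and 0 myogenesis calls in the last 2. It gave miR-206-3p 1.03 for KD6 against WT input, 1.29 for KD6 against KD3 input, 1.82 and 1.07 for the IP ratio in WT and KD6, and −0.75 for its change at day 6. Total mapped reads gave 14 and 10 calls for KD6 against WT and against KD3 input, 0 myogenesis calls in both, and 51 for the change at day 6. miR-206-3p was then at 1.29 for KD6 against KD3 input, 1.51 and 0.74 for the IP ratio in KD3 and KD6, and −0.13 and −0.89 for its change at days 3 and 6.

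Without a filter, 5 miRNAs were called for KD3 against WT input and 1 and 14 for the changes at days 3 and 6, and 2 myogenesis miRNAs for KD6 against KD3 input. miR-206-3p was then at −0.10 and 1.05 for KD3 and KD6 against WT input, 1.496 and 1.08 for the IP ratio in WT and KD6, and −0.41 for its change at day 6. A mean of at least 10 counts gave 1, 15 and 14 calls in the 3 comparisons of inputs, 2 myogenesis calls for KD6 against KD3, and IP ratios of 2.36, 2.38 and 2.09. The largest row per miRNA gave 2 myogenesis calls for KD6 against KD3 input and 6 calls for the change at day 6. Averaged TMM factors, added after the data were seen, gave 1 call for KD3 against WT input and an IP ratio of 1.78 in WT. Only the libraries compared gave 77 calls and 6 myogenesis calls for KD3 against WT input, 10 calls for KD6 against KD3 input, and an IP ratio of 2.10 in KD6.

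With 1 library left out in turn, calls ranged from 0 to 22 for KD6 against WT input, lowest without KD6 input replicate C. They ranged from 1 to 36 for KD6 against KD3 input, lowest without KD3 input replicate A, and from 0 to 20 for the change at day 6, highest without KD6 IP replicate C. Myogenesis calls were 0 to 0 for KD6 against WT input and 0 to 5 for KD6 against KD3 input. miR-206-3p ranged from −0.25 to −0.10 for KD3 against WT input, 0.88 to 1.07 for KD6 against WT input and 1.05 to 1.24 for KD6 against KD3 input. Its IP ratio ranged from 2.39 to 2.52 in WT, 2.32 to 2.52 in KD3 and 1.21 to 2.24 in KD6, and its change from −0.13 to 0.059 at day 3 and −0.49 to −0.22 at day 6.

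With the replicate block, miR-206-3p was at 0.69 for KD6 against WT input and 0.97 for KD6 against KD3 input. The replicate block moved no count of calls by more than 1.5 times and no value of miR-206-3p beyond the spread between replicates.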
